A study of Mus musculus with 16 samples.

Results

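The comparison set 4 libraries of cortical neural progenitors that received a guide against Chd1 against 4 control libraries, all grown with the vehicle DMSO, and followed it from the gene to the single transcript. These are 8 of the 16 RNA-seq libraries of the series. The remaining 8 are knockout cultures given androgen, and they entered the models to share the estimate of the spread and are shown where a transcript was followed further. Progenitors came from the cortex of E18.5 mouse embryos and were cultured with growth factors in B27-supplemented neurobasal medium. Knockout cells, labelled "KO", carried a lentivirus that expresses Cas9 all the time together with a guide against mouse Chd1. Control cells carry the genotype label "WT" but also received a lentivirus, with Cas9 and no Chd1 guide by the growth protocol and a pLenti-CRISPR-v2 control by the design text. The texts thus describe the vectors differently. Both groups were selected with puromycin for 48 h, expanded and kept in DMSO for 24 h before harvest. Of the androgen libraries, 4 had 10 nM dihydrotestosterone (DHT) for 24 h and 4 had the same DHT after 10 µM of the androgen receptor blocker enzalutamide. Each group has 4 biological replicates. The embryos were from 2 litters, and no label ties a replicate to one of them. Whether the edited cells were clones or pools is not given in the sources used here. Libraries were paired by replicate number, which matches the culture prefix of the files.

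CHD1 is a chromatin remodeller that slides and spaces nucleosomes with the energy of ATP. Its paired chromodomains bind histone H3 methylated on lysine 4, a mark of active promoters, and it travels with RNA polymerase II and elongation factors. In embryonic stem cells it is linked to open chromatin and high transcriptional output, and in people variants of CHD1 cause a syndrome of brain development. Loss of a factor of this kind can in principle show at 3 levels: the summed output of a gene, the level of one of its transcripts, and the share that a transcript takes of its gene. All were measured here.

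The deposited tables give estimated counts (reads divided by kallisto among the transcripts they fit) and TPM (transcript abundance corrected for length and depth). Totals were 20.2 M estimated counts (M, mega) in WT replicate 1 and 32.5 to 35.5 M in the other 7 DMSO libraries. WT replicate 1 also stood apart in its share of mitochondrial counts, 1.33% against 3.21 to 3.71%. Results are therefore given with the replicate 1 pair and without it. Levels of single genes and transcripts below are CPM (counts scaled to a common library total), with a scaling factor per library by the TMM method. Levels summed over a list are CPM on the plain library total of gene counts, without TMM factors. A log2 value is knockout over wild-type from the paired model. Markers of progenitors and radial glia (Sox2, Nes, Fabp7 and others) summed to 12240 to 13630 CPM in the WT libraries and 11960 to 12720 CPM in the KO libraries. Neuron markers summed to 845 to 1385 and 894 to 1329 CPM, astrocyte markers to 1544 to 1843 and 1729 to 1972 CPM, and oligodendrocyte lineage markers to 1948 to 2332 and 2024 to 2591 CPM. Microglia markers summed to at most 12.5 CPM in any library, with 3 of them at 0 throughout, endothelial markers to at most 22.2 CPM and erythroid markers to at most 1.71 CPM, with 4 at 0. In bulk RNA, fewer cells of a type and less RNA per cell cannot be told apart.

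Chd1 itself showed no detectable difference in summed level between the groups. It stood at 66.7 ± 5.73 CPM in WT (SD, n = 4) and 67.3 ± 2.68 CPM in KO (SD, n = 4), a log2 ratio of 0.01 with a standard error of 0.08 (edgeR's quasi-likelihood test, Benjamini-Hochberg adjusted p = 0.979). Without the replicate 1 pair the log2 ratio was -0.02. The guide's position in Chd1 was not given in the sources used here, so an mRNA level checks neither the cut nor the labels, and protein was not analysed here.

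The files list 5 Chd1 transcripts. Chd1-201 (7916 bases, 36 exons) encodes the long protein and carried most of the counts. Its level was 48.6, 62.1, 62.7 and 63.2 CPM in WT replicates 1 to 4 and 55.9, 58.7, 61.6 and 58.9 CPM in the KO replicates, so the groups overlapped, with WT replicate 1 the lowest library. Its TPM ran from 9.19 to 12.6 in WT and from 9.34 to 11.5 in KO. It made up 89.4% ± 2.04 of the gene's estimated counts in WT and 87.4% ± 0.566 in KO (SD, n = 4 each). The log2 ratio was -0.01 with a standard error of 0.08.

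Chd1-205 is a shorter annotated coding transcript of 1812 bases and 11 exons. Its level was 4.39, 5.62, 6.11 and 5.82 CPM in WT and 6.02, 7.32, 8.56 and 7.51 CPM in KO. Each KO library was above the WT library of its pair, while KO replicate 1 lay just under WT replicate 3. As a share of the gene it took 7.84, 8.21, 8.88 and 8.18% in WT and 9.5, 10.9, 12.1 and 11.1% in KO, and here the groups did not overlap. The log2 ratio of its level was 0.42 with a standard error of 0.13. That value did not pass over all transcripts (edgeR's quasi-likelihood test, adjusted p = 1), and the share did not pass either (edgeR's diffSpliceDGE, adjusted p = 1). In the knockout libraries with DHT the share was 9.88, 8.96, 8.47 and 10.3%, and with DHT and enzalutamide 8.58, 9.65, 11.3 and 9.01%, so those values ran from inside the WT range up to the KO DMSO range. Chd1-204, another coding transcript of 4211 bases, was at 1.0, 0.672, 0 and 1.96 CPM in WT and 1.48, 1.06, 0.105 and 1.38 CPM in KO. Chd1-203, with no open reading frame annotated, reached 1.93 CPM in WT replicate 1 and was at or near 0 in every other DMSO library. Chd1-202, annotated as a target of nonsense-mediated decay, stayed under the minimum of 0.1 CPM on average.

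**Figure D1:**
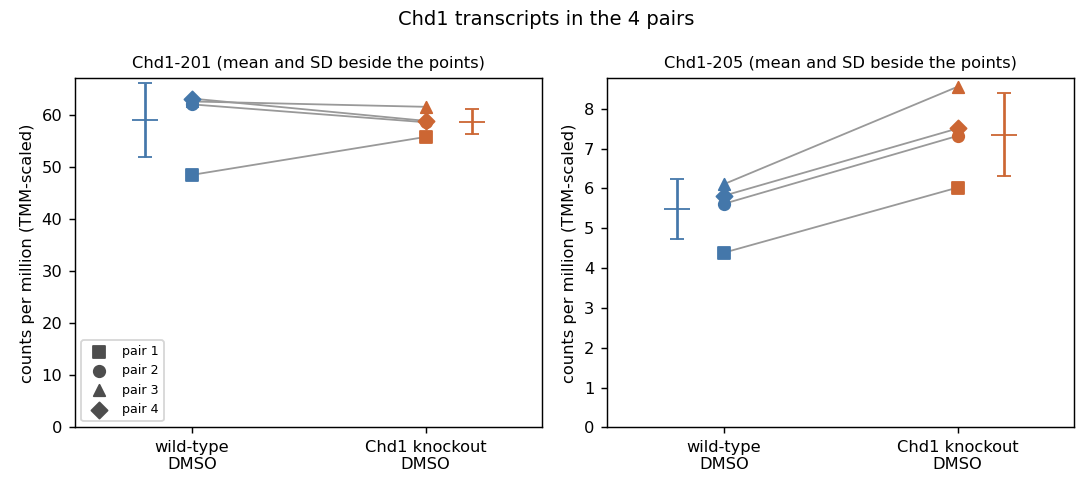
Level of Chd1-201 and Chd1-205 in CPM (y axis) in wild-type and Chd1 knockout cultures in DMSO (x axis), with a line joining the libraries of each pair and the mean and SD of 4 libraries beside the points. Chd1-201 lay between 48.6 and 63.2 CPM in all 8 libraries, and each line for Chd1-205 runs upward, from 4.39 to 6.11 CPM in WT to 6.02 to 8.56 CPM in KO.

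Across genes, no single gene passed the adjusted threshold. Of 16971 genes tested, 0 (0.0%) had an adjusted p under 0.05 in edgeR's quasi-likelihood test, and 1329 (7.83%) had an unadjusted p under 0.05, of which 555 (3.27%) were higher and 774 (4.56%) lower in KO. The smallest adjusted p was 0.475. Without the replicate 1 pair 0 of 17119 genes passed and 1543 had an unadjusted p under 0.05. With limma-voom 0 passed, and with DESeq2 9 passed (0.053%): A2m was higher and Slc7a1, Amotl2, Prune2, Actn1, Dlc1, Clcf1, Slc6a9 and Arhgef2 were lower. Without WT replicate 1, 3 genes passed edgeR's test, and without WT replicate 4, 15 (0.0867%) did. The genes ranked first by unadjusted p are described below as measured values, each with an adjusted p of 0.475 by edgeR.

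The 10 genes ranked first on the lower side had log2 ratios from -1.07 to -0.29. Actn1, which encodes the actin crosslinker alpha-actinin, was at 25.4, 27.2, 23.5 and 21.3 CPM in WT and 19.5, 18.1, 15.5 and 19.3 CPM in KO, a log2 ratio of -0.43 ± 0.08 (SE). Every KO library was below every WT library. Amotl2, an angiomotin-family scaffold of cell junctions and the Hippo pathway, was at 28.2, 46.8, 32.9 and 24.7 CPM in WT and 21.3, 26, 17.4 and 19.4 CPM in KO (log2 -0.65 ± 0.13). KO replicate 2 exceeded the lowest WT library, so the groups overlapped. Syde1, a GTPase-activating protein, was at 104, 108, 109.5 and 93.2 CPM in WT and 89.6, 87.3, 81.0 and 78.3 CPM in KO (log2 -0.30 ± 0.07), with no overlap. Dlc1, another GTPase-activating protein, Arhgef2, a microtubule-bound guanine nucleotide exchange factor, and Plxna3, a semaphorin receptor, had log2 ratios of -0.38, -0.29 and -0.36 and overlapping groups.

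Slc6a9, a glycine transporter, was at 46.1, 52.0, 49.2 and 44.2 CPM in WT and 37.4, 43.5, 32.9 and 33.9 CPM in KO (log2 -0.38 ± 0.08), with no overlap. Slc7a1, the transporter of cationic amino acids such as arginine, was at 287, 279, 218 and 265 CPM in WT and 241, 207, 168 and 225 CPM in KO (log2 -0.33 ± 0.07). Each pair had the lower value in KO, and KO replicates 1 and 4 lay above WT replicate 3. Trib3, a pseudokinase induced by the factor ATF4, had the widest log2 ratio of the 20 genes, -1.07 ± 0.25. It was at 26, 29.9, 22.9 and 24.8 CPM in WT and 19.7, 13.3, 6.40 and 15.6 CPM in KO, with no overlap and the lowest value in KO replicate 3. Prune2 stood at 13.8, 12.5, 6.87 and 7.30 CPM in WT and 7.72, 4.56, 3.32 and 6.41 CPM in KO (log2 -0.91 ± 0.19), with overlap.

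The 10 genes ranked first on the higher side had log2 ratios from 0.24 to 0.56. Hsdl2, a peroxisomal dehydrogenase, was at 32.1, 33.5, 38.1 and 39.95 CPM in WT and 43.8, 43.1, 43.4 and 45.1 CPM in KO (log2 0.29 ± 0.07). Cyp2j9, a cytochrome P450, was at 5.58, 6.08, 7.06 and 7.39 CPM in WT and 8.04, 8.15, 9.52 and 9.17 CPM in KO (log2 0.42 ± 0.10). Ctsh, the lysosomal protease cathepsin H, was at 15.2, 15.6, 19.7 and 20.2 CPM in WT and 23.1, 21.7, 24.7 and 23.0 CPM in KO (log2 0.39 ± 0.09). The groups did not overlap for these 3 genes or for Rnf180, a ubiquitin ligase (log2 0.38 ± 0.09). Crot, a peroxisomal carnitine acyltransferase, had a log2 ratio of 0.33, and Cd36, a fatty acid and lipoprotein receptor, 0.56. A2m, the protease inhibitor alpha-2-macroglobulin, was at 43.6, 42, 37.7 and 56.7 CPM in WT and 52.7, 52.4, 54.9 and 65.4 CPM in KO (log2 0.34 ± 0.07). WT replicate 4 was above 3 KO libraries, so A2m overlapped. Glrx, a glutaredoxin, Pmp22, a membrane protein of myelin and other cells, and Nxpe4 had log2 ratios of 0.37, 0.24 and 0.36, with overlap. Over all genes, the 4 KO libraries lay above the 4 WT libraries for 0.613% and below them for 0.465%, and the named genes were chosen partly for having the same sign in every pair, so their number without overlap is a description.

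**Figure D2:**
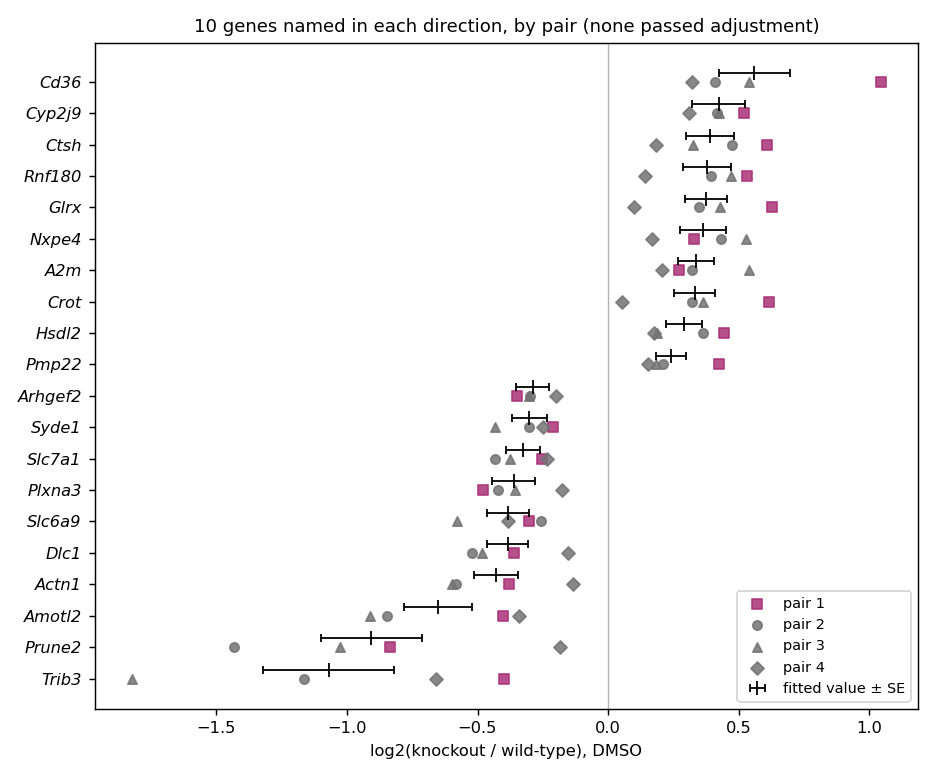
Log2 ratio of knockout over wild-type in DMSO (x axis) for the 10 genes ranked first in each direction (y axis), with 1 point per pair and the fitted value with its standard error in black. All points of a gene lie on one side of 0 because the genes were chosen that way, and the fitted values run from -1.07 for Trib3 to 0.56 for Cd36.

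A list that lay wholly on one side was the integrated stress response, the programme in which the factor ATF4 is translated when amino acids are short or proteins misfold and then switches on amino acid transporters, biosynthetic enzymes and tRNA synthetases. All 35 tested members of that list had a log2 ratio below 0, beside 8517 of 16971 genes, and the median was -0.20, beside -0.001 over all genes. By unadjusted p under 0.05, 20 of 35 were lower (4.56% of all genes) and 0 higher (3.27%), and none passed the adjusted threshold. Of the 35, 19 were lower in 4 of 4 pairs (6.57% of all genes were, and 6.24% were higher in 4). In pairs 1 to 4 the median was -0.10, -0.17, -0.38 and -0.19, and 22, 31, 35 and 34 members were below 0, so pair 1 with the shallow library was the weakest and pair 3 the widest. Without pair 1 the median was -0.24 and all 35 stayed below 0. Summed over the list without TMM factors, WT libraries held 7921 to 8599 CPM and KO libraries 6908 to 7744 CPM. These unscaled sums did not overlap. The TMM factor was 1.04 for WT replicate 4 and 0.966 for KO replicate 2. Dividing by the factors puts KO replicate 2 above WT replicate 4, so on that scale the groups overlap. Over all processing alternatives the median ran from -0.24 to -0.14. The members and the list were known from earlier results of these data, so the counts are a description.

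The 8 transcription factors of the list and their regulators had a median log2 ratio of -0.31. Atf4 itself was at 219.5, 284, 298 and 236 CPM in WT and 231, 226.5, 200.1 and 192 CPM in KO (log2 -0.29 ± 0.11). KO replicate 1 was above its WT partner and the other 3 pairs were lower in KO. Atf4 is described because of its place in the pathway, after its values were seen, as are the next genes outside the naming rule. Ddit3, which encodes CHOP, was at 22.6, 18.9, 15.8 and 25.2 CPM in WT and 21.3, 14.3, 9.55 and 17.0 CPM in KO (log2 -0.45 ± 0.13). Nupr1, a small stress-induced chromatin protein, was at 31.8, 32.5, 33.9 and 28.9 CPM in WT and 29.4, 25.8, 14.6 and 23.5 CPM in KO (log2 -0.49 ± 0.16). For Ddit3 and Nupr1 every pair was lower in KO, and in each the lowest library was KO replicate 3, as for Trib3. Atf5, a sister factor of ATF4, had a log2 ratio of -0.30 ± 0.10.

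Among the other targets Chac1, an enzyme that degrades glutathione, was at 23.8, 25.6, 20.4 and 22.3 CPM in WT and 21.8, 12.3, 4.57 and 17.3 CPM in KO (log2 -0.91 ± 0.23). Only KO replicate 1 reached into the WT range. Stc2, a secreted glycoprotein, was at 19.1, 20.9, 18.3 and 16.1 CPM in WT and 16, 13.8, 13.3 and 14.3 CPM in KO (log2 -0.38 ± 0.10), with no overlap by a narrow gap. Pck2, the mitochondrial PEP carboxykinase, had a log2 ratio of -0.31 ± 0.09.

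The 7 amino acid transporters had a median of -0.20. Slc3a2, the heavy chain shared by several of them, was at 767, 811, 914 and 729 CPM in WT and 714, 723, 721 and 655 CPM in KO (log2 -0.19 ± 0.07), with no overlap. Its partner Slc7a5, the leucine transporter, was at 971, 1024, 1085 and 901 CPM in WT and 878, 922, 864 and 804 CPM in KO (log2 -0.20 ± 0.06). Slc7a11, the cystine transporter, went against the pattern in pair 1. It was at 55.5, 122, 79.5 and 100.0 CPM in WT and 86.9, 78.5, 46.5 and 78.3 CPM in KO, a log2 ratio of -0.33 ± 0.19 with pair 1 and -0.59 without it. The 7 enzymes of serine, asparagine and one-carbon metabolism had a median of -0.19. Within them Shmt2 (-0.24 ± 0.06) and Mthfd2 (-0.28 ± 0.11), which feed mitochondrial one-carbon units, stood below Phgdh (-0.09 ± 0.08), Asns (-0.13 ± 0.12) and Psat1 (-0.01 ± 0.07), which make serine and asparagine. The 7 aminoacyl-tRNA synthetases had the smallest median, -0.11, from -0.21 for Cars to -0.05 for Sars. The division into roles was made after the values were seen.

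**Figure D3:**
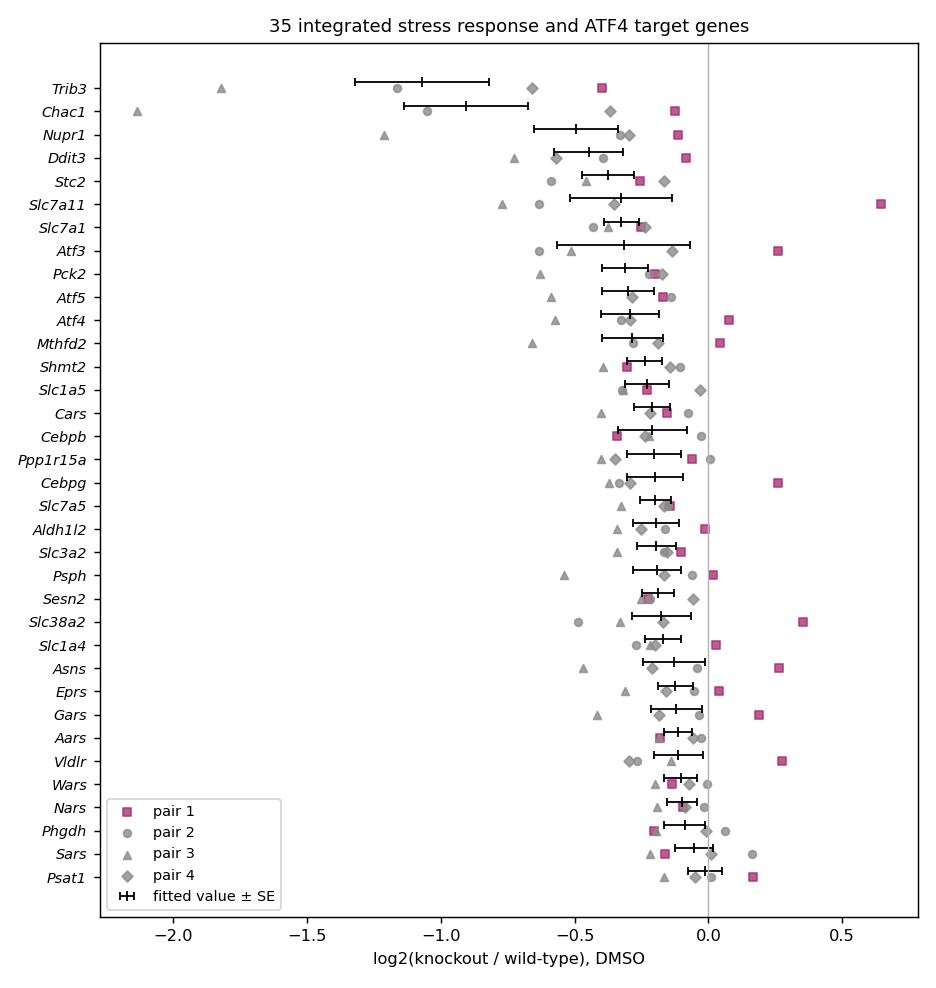
Log2 ratio of knockout over wild-type in DMSO (x axis) for the 35 tested genes of the integrated stress response list (y axis), with 1 point per pair and the fitted value with its standard error in black. The fitted values run from -1.07 for Trib3 to -0.01 for Psat1, and the points of pair 1 scatter to both sides of 0 with 22 of 35 below it.

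ATF4 binds with C/EBP partners to a composite DNA element that includes TGATGNAA, where N is any base. The letters were looked for on both strands of RefSeq promoter windows (GRCm38.p6, 250 bases before to 50 after a gene's start), and a window was at hand for 29 of the 35 genes. The motif stood in 10 of the 29 windows (34.5%), in 2.4% of 12116 windows of tested genes and in 4.06% of all 27025 windows. The windows of Chac1, Slc7a11, Nupr1 and Pck2 are shown because these genes had log2 ratios between -0.91 and -0.31 and a match. Matches not shown stood in the windows of Trib3, Atf3, Slc1a4, Asns, Aars and Gars. Of these Trib3 had the widest fall of the list. Asns and the synthetases Aars and Gars had smaller falls than the genes shown. Ddit3, Stc2 and Slc7a1 had ratios in the same range as the genes shown, as given above, and their windows held no match. The capitals mark the motif; on the other strand it reads as its reverse complement. A match is a run of letters and not a measured binding site. The list was put together as ATF4 and its targets, so its higher share follows from that choice and is no result about the knockout.
Chac1 (chr2:119351009-119351096, plus strand): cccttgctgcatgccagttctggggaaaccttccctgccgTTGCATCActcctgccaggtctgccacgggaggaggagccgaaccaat
Slc7a11 (chr3:50443614-50443719, minus strand): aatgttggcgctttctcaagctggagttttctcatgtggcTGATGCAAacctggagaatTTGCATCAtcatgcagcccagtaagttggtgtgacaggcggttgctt
Nupr1 (chr7:126625533-126625620, minus strand): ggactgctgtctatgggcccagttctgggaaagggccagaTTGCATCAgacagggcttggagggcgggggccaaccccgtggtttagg
Pck2 (chr14:55540123-55540210, plus strand): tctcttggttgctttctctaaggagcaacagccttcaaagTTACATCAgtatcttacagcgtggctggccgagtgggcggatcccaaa
Slc7a11 carries the motif on both strands within the stretch shown, and the other 3 stretches hold it once, on the strand opposite to the gene.

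The model fitted only on the 6 DMSO libraries of replicates 2 to 4 leaves fewer residual degrees of freedom but takes the spread from these cultures alone. It passed 32 of 15692 genes (0.204%), 14 higher and 18 lower in KO, where the model with the androgen libraries passed 0 of 17119. A fit on all 8 DMSO libraries alone, with the replicate 1 pair, passed 0 of 15870 genes. Of the 32, 6 belong to the integrated stress response list, which is 18.8% of the genes passed and 17.1% of the list, and all 6 fell: Trib3 (log2 -1.19, edgeR adjusted p = 0.00295), Slc7a11 (-0.58, edgeR adjusted p = 0.00398), Chac1 (-1.13), Ddit3 (-0.56), Atf4 (-0.40) and Slc7a1 (-0.35). In this fit the YAP targets Ccn1, Ccn2 and Amotl2 fell by 0.81, 1.00 and 0.70 on the log2 scale, and the matrix protein gene Thbs1 fell by 1.03. The astrocyte gene Aldh1l1 and the GABA transporter gene Slc6a11 rose, with log2 ratios of 0.63 and 1.03. Further genes that rose were Btbd17, Gsx1, Bcar3 and Wnt7a, and some were processed pseudogenes of ribosomal proteins, which share reads with their parent genes and are uncertain.

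Genes of the extracellular matrix were also mostly lower, but not in every pair. Of 38 tested members 33 had a log2 ratio below 0 and the median was -0.22. By unadjusted p under 0.05, 16 were lower (4.56% of all genes) and 1 higher (3.27%), the protease inhibitor gene Timp3. The median was -0.32, -0.26 and -0.21 in pairs 1 to 3 and 0.02 in pair 4, and -0.14 without pair 1. The list summed to 7163 to 8652 CPM in WT and 6099 to 7172 CPM in KO, so the groups overlapped narrowly. Tnc, which encodes tenascin-C, a matrix protein of radial glia, was at 2228, 2783, 2227 and 1914 CPM in WT and 1733, 1868, 1485 and 1887 CPM in KO (log2 -0.40 ± 0.10), with no overlap. Col5a1, a fibrillar collagen chain, was at 68.3, 65.2, 61.6 and 54.4 CPM in WT and 42.4, 54.1, 50.3 and 51.4 CPM in KO (log2 -0.34 ± 0.09), also with no overlap. Thbs1, thrombospondin, varied widely among the WT cultures: 11.6, 67.5, 38.5 and 11.2 CPM in WT and 9.78, 26.5, 14.1 and 10.2 CPM in KO (log2 -0.90 ± 0.23). Col5a3 had a log2 ratio of -0.30 ± 0.08. Markers of pericytes, meninges and fibroblasts, which also make matrix, summed to 38.1 to 54.3 CPM in WT and 34.1 to 48.8 CPM in KO, with 6 of 7 tested members below 0 and a median of -0.21, or 0.08 without pair 1. Acta2, smooth muscle actin and the one member of the 7 with an unadjusted p under 0.05, was at 2.28, 11.7, 11.9 and 2.88 CPM in WT and 2.82, 3.81, 4.83 and 3.43 CPM in KO (log2 -0.73 ± 0.26, -0.98 without pair 1). It was lower in pairs 2 and 3 and higher in pairs 1 and 4. Col1a1 was at 2.83 CPM in WT replicate 1 and at most 1.19 CPM in the other 7 libraries. Their part in the result was not tested.

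Actin and focal adhesion genes had a similar profile over the pairs. Of 29 tested members 26 were below 0, 14 were lower by unadjusted p under 0.05 (4.56% of all genes) and 0 higher (3.27%), and the median was -0.19 (-0.15 without pair 1), with -0.18, -0.24 and -0.25 in pairs 1 to 3 and 0.10 in pair 4. Besides Actn1, Myl9, a regulatory myosin light chain, was at 9.99, 29.0, 31.3 and 10.0 CPM in WT and 8.84, 22.0, 18.2 and 7.92 CPM in KO (log2 -0.45 ± 0.11). Cnn2, a calponin, was at 27.6, 60.1, 58.4 and 23.6 CPM in WT and 23.3, 40.9, 31.6 and 22.6 CPM in KO (log2 -0.45 ± 0.11). Flna, filamin A, was at 642, 807, 548 and 540.3 CPM in WT and 501, 541, 391 and 573 CPM in KO (log2 -0.34 ± 0.09). In these 3 genes the highest value was in WT replicate 2 or 3, and the groups overlapped.

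The Hippo and YAP list was mixed. Of 26 tested members 15 were below 0 and the median was -0.05, with 6 lower (4.56% of all genes) and 1 higher (3.27%) by unadjusted p under 0.05. The one higher was F3, tissue factor (log2 0.25 ± 0.11). The 6 lower were Amotl2 and Dlc1, named above, Lats2, a Hippo kinase (-0.35 ± 0.11), and Ccn1, Ccn2 and Ajuba. Yap1 itself had a log2 ratio of 0.04 ± 0.05. Ccn1, a secreted matricellular protein, was at 15.5, 31.4, 25.2 and 15.8 CPM in WT and 14, 16.1, 10.3 and 13.9 CPM in KO (log2 -0.71 ± 0.20). Ccn2 was at 38.3, 101, 78.3 and 49.0 CPM in WT and 50.4, 47.9, 25.3 and 39.7 CPM in KO (log2 -0.73 ± 0.24), with pair 1 going the other way. Ajuba, a LIM protein that restrains the Hippo kinases, was at 44.4, 56.3, 51.1 and 33.0 CPM in WT and 33.4, 37.7, 36.1 and 34.7 CPM in KO (log2 -0.36 ± 0.09), with pair 4 going the other way. TEAD factors, the DNA-binding partners of YAP, recognise GGAATG. These letters stood, on either strand, in 9 of 18 windows of the Hippo and YAP list (50%) and in 9 of 25 of the actin list (36%), beside 12.2% of the windows of tested genes and 14.6% of all windows. The Hippo and YAP list was put together as a list of YAP targets, so its share follows from that choice and is no result about the knockout. Of the actin genes named above, Flna had a match and Actn1, Myl9 and Cnn2 had none. The GGAATG letters do not overlap the ATF4 motif in any of the stretches printed. Capitals mark the motif as it reads on the gene's strand, CATTCC, in the windows of 3 genes named above.
Ccn1 (chr3:145650043-145650128, minus strand): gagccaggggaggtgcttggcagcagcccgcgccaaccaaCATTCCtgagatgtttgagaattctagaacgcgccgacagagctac
Amotl2 (chr9:102717699-102717784, plus strand): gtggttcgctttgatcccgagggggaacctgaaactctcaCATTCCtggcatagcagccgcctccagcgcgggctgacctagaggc
Ajuba (chr14:54577780-54577887, minus strand): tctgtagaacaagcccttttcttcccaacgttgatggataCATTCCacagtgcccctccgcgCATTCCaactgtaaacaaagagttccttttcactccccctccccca
Ajuba holds the motif at a pair of places and Ccn1 and Amotl2 at one place each within the stretches shown.

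Smaller median differences in the other direction were found for metabolic and cell cycle lists. Of all genes tested 8454 of 16971 were above 0, and 5467 of the 9748 with a mean of at least 10 CPM. Nuclear-encoded respiratory chain subunits had 39 of 45 members above 0, and 6 were higher by unadjusted p under 0.05 (3.27% of all genes). Their median was 0.08, with -0.002, 0.17, 0.01 and 0.08 in pairs 1 to 4, so pair 2 was the widest. Uqcrc2 of complex III was at 131, 178, 179 and 147 CPM in WT and 162, 197, 191 and 162 CPM in KO (log2 0.17 ± 0.06). G1/S and DNA replication genes had 29 of 35 above 0, and 7 were higher by unadjusted p (3.27% of all genes). Their median was 0.06, with -0.02, 0.16, 0.09 and 0.06 in pairs 1 to 4. Rrm1, a subunit of ribonucleotide reductase, was at 236, 305, 349 and 268 CPM in WT and 288, 345, 408 and 289.6 CPM in KO (log2 0.20 ± 0.06), higher in each pair with overlapping groups. The summed level of that list was 7841 to 8397 CPM in WT and 7733 to 7939 CPM in KO, and its median was -0.09 when the 3 knockout groups were averaged, a comparison added after the data were seen. Lysosomal genes had 23 of 31 above 0 and a median of 0.07. By unadjusted p 3 were higher, Ctsh, Manba and Npc1 (3.27% of all genes). Astrocyte markers were mixed, with 9 of 15 above 0, 6 below and a median of 0.03 (-0.02, -0.01, 0.13 and 0.07 in pairs 1 to 4). Clu (-0.29 ± 0.16) and Gfap (-0.38 ± 0.22) had the most negative ratios. By unadjusted p 0 were lower (4.56% of all genes) and 4 were higher (3.27%). The 4 were Slc1a2, a glutamate transporter (log2 0.33 ± 0.10), Aldh1l1 (0.44 ± 0.14), S100b (0.49 ± 0.17) and the gap junction gene Gja1 (0.19 ± 0.07). Aldh1l1 was at 178, 50.8, 77.3 and 178 CPM in WT and 169, 88.8, 133 and 221 CPM in KO, so cultures of both groups differed severalfold by replicate. Among 25 progenitor and radial glia markers 6 were higher (Slc1a3, Fabp7, Ptprz1, Prom1, Glul and Nr2e1) and 4 lower (Tnc, Sox3, Lhx2 and Nes) by unadjusted p (3.27 and 4.56% of all genes).

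Small medians were found for lists close to CHD1's own biochemistry. Of the 9 CHD remodellers 8 were below 0 with none at an unadjusted p under 0.05, and the median of -0.08 became -0.02 without pair 1. Chd2, the nearest relative of CHD1, was at 85.4, 64.2, 50.5 and 85.3 CPM in WT and 77.8, 52.5, 50.05 and 79.5 CPM in KO (log2 -0.14 ± 0.08). The 31 elongation factors and nucleosome partners had a median of 0.03. At an unadjusted p under 0.05, 1 member was higher (3.27% of all genes), the histone chaperone gene Asf1a (log2 0.20 ± 0.08). The 74 cytosolic ribosomal protein genes had a median of -0.01, the 24 p53 targets 0.01 and the 20 endoplasmic reticulum chaperones and unfolded protein response genes 0.01. Immediate early genes had 22 of 30 below 0, 7 lower by unadjusted p (4.56% of all genes) and a median of -0.07.

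**Figure D4:**
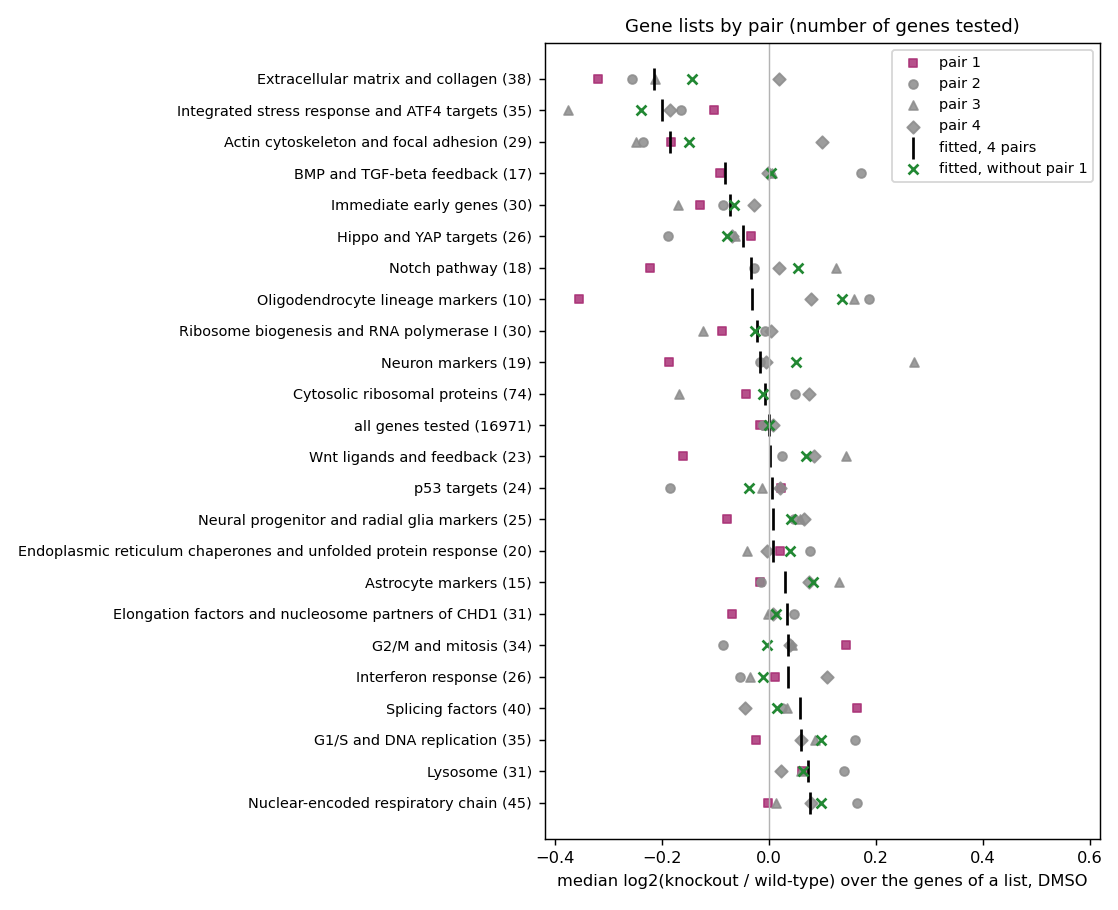
Median log2 ratio of knockout over wild-type in DMSO (x axis) over the tested genes of each list (y axis, with their number), by pair, from the model with 4 pairs and from the model without pair 1. The integrated stress response list lies left of 0 in all 4 pairs, from -0.38 to -0.10, while the extracellular matrix and actin lists reach 0.02 and 0.10 in pair 4.

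At the level of single transcripts 0 of 50603 (0.0%) passed edgeR's adjusted threshold, 2109 (4.17%) had an unadjusted p under 0.05 and the smallest adjusted p was 0.914. Limma-voom passed 0 and DESeq2 144. The spread between replicates was wider here than for genes, with a biological coefficient of variation of 0.509 against 0.122 for genes. Without the replicate 1 pair 0 of 51683 passed and 2370 had an unadjusted p under 0.05.

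Several of the 16 transcripts ranked first repeat their gene: A2m-201, Slc6a9-201, Slc7a1-201, Dlc1-201 and Amotl2-201, of which Amotl2-201 had a log2 ratio of -0.85 ± 0.18. Others belonged to genes not named so far. Tfe3-206, a transcript of a factor for lysosomal genes, was at 6.74, 5.63, 6.87 and 5.94 CPM in WT and 1.51, 1.96, 2.44 and 3.57 CPM in KO (log2 -1.49 ± 0.33), with no overlap. Mfn1-201, which encodes mitofusin 1, a GTPase of mitochondrial fusion, was at 50.8, 51.4, 70.8 and 63.0 CPM in WT and 73.2, 72.3, 94.0 and 70.8 CPM in KO (log2 0.39 ± 0.08), where the lowest KO library was just above the highest WT library. Rprd2-205, from a gene for a protein that binds the tail of RNA polymerase II, was at 15.7, 17.2, 15.9 and 11.5 CPM in WT and 27.0, 26.6, 19.0 and 24.8 CPM in KO (log2 0.70 ± 0.15), with no overlap. Nr3c1-203, from the glucocorticoid receptor gene, was at 19.4, 12.5, 9.04 and 17.2 CPM in WT and 43.3, 19.8, 12.1 and 32.7 CPM in KO (log2 0.79 ± 0.19), higher in each pair with overlapping groups. Igfbp3-202, for an insulin-like growth factor binding protein, was at 190.3, 168, 135 and 129 CPM in WT and 126, 116, 97.8 and 111 CPM in KO (log2 -0.46 ± 0.10), and Tnk2-207, for a tyrosine kinase, had a log2 ratio of -0.51 ± 0.11. Asrgl1-201 (0.31), Yaf2-202 (0.44), Sall3-201 (0.25), Ttyh1-201 (0.91) and Ltbp3-210 (-0.91) complete the set. The groups did not overlap for 8 of the 16, where over all transcripts 0.713% lay wholly higher and 0.565% wholly lower. The 16 were chosen partly for the same sign in each pair.

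The third level is the share a transcript takes of its gene's estimated counts. Of 42828 transcripts in 10467 genes, 41 (0.0957%) passed edgeR's diffSpliceDGE at an adjusted p under 0.05, 16 with a higher and 25 with a lower share in KO, each in a different gene. Of the genes 17 (0.162%) passed at the gene level. Limma's diffSplice, which made fewer false calls in simulated data with less spread than here, passed 38 transcripts. By both tools 5 were passed: Phf3-201, Rprd2-201, Cdc34-202, Ndc80-204 and Snx32-203. A model on arcsine-transformed shares passed 0. Without the replicate 1 pair 63 of 43789 transcripts (0.144%) passed, 24 of them among the 41. The count depended on single libraries, from 27 without KO replicate 1 to 75 without WT replicate 1, and it was 63 without WT replicate 3 and 71 without WT replicate 4. With only the 8 DMSO libraries in the fit it was 3.

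Phf3 encodes a protein that binds the tail of elongating RNA polymerase II. Phf3-201 (7561 bases, protein coding) took 33.6, 43.2, 53.5 and 46.4% of the gene's estimated counts in WT replicates 1 to 4 and 15.0, 24.9, 3.94 and 23.2% in KO. Each KO library was below each WT library, and the share fell (edgeR diffSpliceDGE adjusted p = 0.000677, limma 6.81e-05, edgeR without the replicate 1 pair 0.00619). The call was lost with the 8 DMSO libraries alone (adjusted p = 0.107), among shares of at least 5% (0.517), on arcsine shares (0.971) and with the mean of the 3 knockout groups (0.888). In KO libraries with DHT the share was 55.6, 40.4, 30.1 and 31.6% and with DHT and enzalutamide 42.6, 36.4, 51.5 and 58.2%. These 8 libraries carry the same guide, and all of them lay above all 4 KO DMSO libraries, 4 of them within the WT range. Of the 7531 words of 31 bases in Phf3-201, 0 are absent from the other annotated transcripts of the gene. The estimate thus rests on how reads are divided among transcripts that share all of this sequence.

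Rprd2-201 (7756 bases, protein coding) took 31, 29, 32.5 and 52.6% of its gene's counts in WT and 0.000275, 4.93, 14.9 and 15.8% in KO, with no overlap (edgeR diffSpliceDGE adjusted p = 0.00656, limma 0.00186, edgeR without the replicate 1 pair 0.0199). The call was lost with the 8 DMSO libraries alone (adjusted p = 0.937), among shares of at least 5% (0.213), on arcsine shares (0.971) and with the mean of the 3 knockout groups (0.218). The share fell, while the level of the sister transcript Rprd2-205 was higher in each pair, as given above. In the knockout with DHT the Rprd2-201 share was 31.7, 22.2, 19.5 and 37.2% and with DHT and enzalutamide 8.84, 18.1, 32.0 and 39.8%, a range that reaches into both DMSO groups. Rprd2-201 has some sequence of its own: 84 of its 7726 words of 31 bases are in no other transcript of the gene. Its exon 4 of 11, shown because Rprd2-205 lacks it, has 132 bases and is wholly coding (GENCODE M21, GRCm38). The capitals mark the 54 bases that are in no exon of another annotated Rprd2 transcript, and the 78 in lower case are also in Rprd2-202 and Rprd2-204.
Rprd2-201 exon 4 (chr3:95786320-95786451, minus strand): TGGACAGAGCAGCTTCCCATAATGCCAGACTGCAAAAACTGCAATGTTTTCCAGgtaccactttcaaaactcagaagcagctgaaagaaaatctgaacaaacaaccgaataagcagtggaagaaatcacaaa

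The 3 other transcripts passed by both tools were minor forms. Cdc34-202, from the gene of a ubiquitin-conjugating enzyme of the cell cycle, took at most 0.0139% in WT and 0.0287, 1.64, 9.25 and 3.18% in KO (edgeR diffSpliceDGE adjusted p = 0.000338, limma 0.0115). Ndc80-204, a non-coding transcript of a kinetochore gene, took 9.17, 0, 8.45 and 3.98% in WT and 0% in each KO library (edgeR diffSpliceDGE adjusted p = 0.00656, limma 0.0133), and without the replicate 1 pair it did not pass (0.139 by edgeR). Snx32-203, from a sorting nexin gene, took 0, 0, 8.39 and 11.1% in WT and 0% in each KO library (edgeR diffSpliceDGE adjusted p = 0.0384, limma 0.0493). A share listed at 0 can be a failed estimate, since kallisto may give all reads to a sister transcript.

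Further transcripts passed only edgeR's test. Zfhx3-204, a 17152-base coding form of a homeobox factor gene, was at or near 0% in all WT libraries and took 28.4, 27.4, 0 and 18.4% in KO, where replicate 3 was the exception (edgeR diffSpliceDGE adjusted p = 0.000188, limma 0.218). With DHT it took 24.4, 6.05, 0 and 4.11% and with DHT and enzalutamide 13.2, 24.1, 0 and 9.48%, so it was above 0 in 9 of 12 knockout libraries and at 0 in those of replicate 3. Hus1-203, a transcript of a DNA damage checkpoint gene annotated for nonsense-mediated decay, took 23.0, 9.37, 24.5 and 5.64% in WT and 0.00838, 2.38, 0 and 6.8e-05% in KO (edgeR diffSpliceDGE adjusted p = 0.00983, limma 0.568). Ccdc163-202 took 12.2, 17.1, 15.6 and 6.35% in WT and 0, 5.68, 0 and 0% in KO. Spsb3-209 took 31.9, 1.03, 1.09 and 32.6% in WT and 0.372 to 0.857% in KO, so WT replicates 1 and 4 set the difference. Orai2-202, from the gene of a calcium channel subunit, took 13.4, 8.71, 3.12 and 14.1% in WT and 5.02, 0, 0 and 7.56% in KO, with overlap. Without the replicate 1 pair Hus1-203, Ccdc163-202 and Spsb3-209 did not pass (edgeR diffSpliceDGE adjusted p = 0.117, 0.232 and 0.428), and Orai2-202 and Zfhx3-204 did (0.0199 and 0.00679). The naming rule also picked Mast2-202, Zmynd8-221, Usp34-208 and Aqr-207, whose adjusted p by edgeR diffSpliceDGE ran from 0.0648 to 0.154. Usp34-208 took 38.9, 13.8, 14.8 and 22.6% in WT and 5.82, 10.4, 10.2 and 11.3% in KO (limma diffSplice adjusted p = 0.0133). The groups did not overlap for it.

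**Figure D5:**
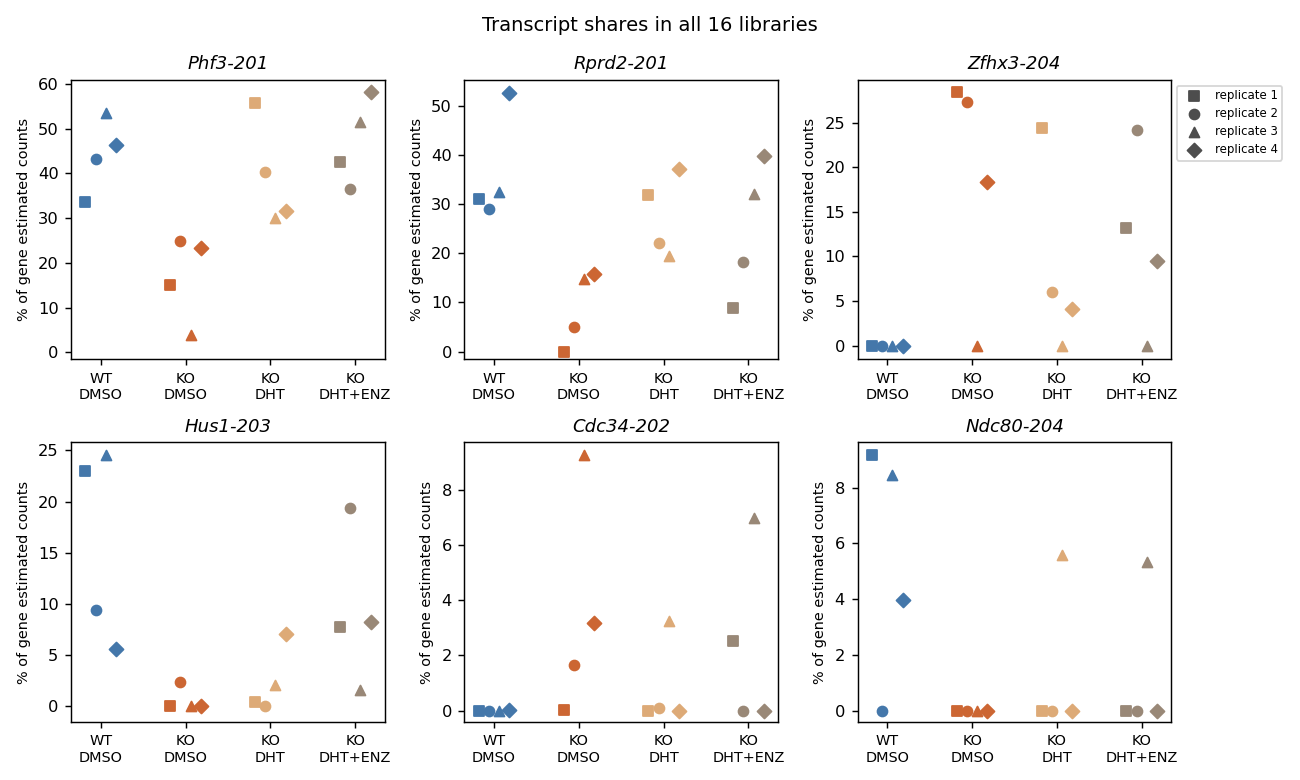
Share of the gene's estimated counts (y axis, percent) of 6 transcripts in all 16 libraries, by group (x axis) and replicate (marker). Phf3-201 and Rprd2-201 lie lower in KO DMSO than in WT DMSO with no overlap, and the KO DHT and KO DHT+ENZ libraries, with the same guide, lie on both sides of the lowest WT library for both.

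As a set, the 41 transcripts were minor forms that share most of their sequence with their sisters. The mean share over the DMSO libraries was under 5% for 34 of them, and its median was 1.59% beside 6.30% over all transcripts tested. A median of 1.44% of their 31-base words were in no other transcript of the gene, beside 8.67% over all tested. Of the 41, 25 had the same direction in 4 of 4 pairs. In 14 the estimated count rounded to 0 in all 4 KO DMSO libraries, and each of these reached a rounded count of 1 or more in at least 1 of the 8 other knockout libraries. In another 14, Cdc34-202 among them, it rounded to 0 in all 4 WT DMSO libraries, and 13 of these reached 1 or more in at least 4 of the 8 other knockout libraries. These numbers are partly set by the filter, since a transcript at 0 in a whole group was tested only if enough other libraries held counts. They were not counted over all transcripts tested. The mean share with DHT was nearer to WT DMSO than to KO DMSO for 20 of the 41, and with DHT and enzalutamide for 15. The 41 were chosen for a wide difference between the DMSO groups, so libraries outside that choice tend to lie between them. The 20 and the 15 are thus a description, without a count over all transcripts tested. Among the 41 transcripts 31 were annotated as protein coding (75.6%, beside 58.3% of transcripts tested) and 1 as a retained intron (2.44%, beside 23.6%).

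Summed over whole classes of transcripts, an exact two-sided sign-flip permutation test over 4 pairs cannot go below p = 0.13, so no class could pass. Long intergenic non-coding RNAs took 0.484% ± 0.154 of the counts in WT and 0.44% ± 0.141 in KO, and transcripts annotated for nonsense-mediated decay 1.48% ± 0.118 and 1.44% ± 0.0723 (SD, n = 4 each). Both were lower in KO in 4 of 4 pairs, at that smallest p, with differences from -0.0695 to -0.00134 and from -0.129 to -0.00197 percentage points. Protein-coding transcripts took 92.3% of each library's counts on average in WT and 92.8% in KO. Retained introns took 2.49% ± 0.811 in WT and 2.23% ± 0.481 in KO (SD, n = 4 each).

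The pairs differed in size and profile. The SD of the log2 ratios across genes was 0.439 in pair 1 and 0.211, 0.179 and 0.152 in pairs 2 to 4. Over 9747 genes (a gene is no independent replicate) the log2 ratios correlated with r from -0.35 between pairs 1 and 4 to 0.31 between pairs 2 and 3. Their Spearman correlation with transcript length was 0.10, -0.49, 0.18 and -0.14 in pairs 1 to 4, so in pair 2 long transcripts had the lower ratios and in pair 3 the higher ones. The part of transcript length in the lists above was not tested.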

How the data were processed

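RNA of 16 cultures was sequenced as poly(A)-selected, paired-end libraries of 150 bp reads, and 8 of the libraries enter the comparison. The authors' deposited tables give, per transcript, estimated counts (not whole numbers) and TPM. Reads were assigned with kallisto and the build is GRCm39, per the submitters' processing notes, and versions and settings are not given in the sources used here. Gene names, transcript classes and exons were taken from GENCODE M21 (GRCm38), which matched 135007 of 146190 transcripts to 49166 genes and 98.8 to 99.1% of the counts. No coordinate of the build GRCm39 is printed.

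Estimated counts were summed per gene or kept per transcript, rounded, filtered with filterByExpr, scaled by TMM and tested with edgeR 4.0.16 (quasi-likelihood, Benjamini-Hochberg) on all 16 libraries, with the replicate number as a block. Shares were tested with diffSpliceDGE. On simulated data, edgeR, DESeq2 and limma-voom were run for genes, edgeR for transcripts, and both share tests. The models on TPM and arcsine shares and most other alternatives were not. There diffSpliceDGE made more false calls than its threshold states and limma's diffSplice (limma 3.58.1) did not, so both are given. Simulated transcripts varied less than the measured ones (biological coefficient of variation 0.509), so this ranking of the share tests is not shown for data like these. Alternatives used DESeq2 1.42.0, limma-voom, log2(TPM + 0.5), log2(TPM + 0.1), other filters, other sets of libraries and no block, under R 4.3.3, Python 3.11.15, pandas 2.3.3, numpy 2.4.6 and matplotlib 3.10.9. The files hold single estimates, so the error of dividing reads among transcripts shows only as spread between libraries, and p-values measure the spread between these cultures.

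Same-numbered libraries deviated together, but not always most closely. The correlation of their deviations from the group means, over 9747 genes, was 0.14, 0.37, 0.79 and 0.57 for replicates 1 to 4, each over 0.1. WT replicate 1 was closer to KO replicate 4 (0.32), and WT replicate 4 to KO replicate 1 (0.68). KO replicate 2 was closer to WT replicate 3 (0.62) than to WT replicate 2 (0.37). Named are Chd1, in each direction 10 genes and 8 transcripts by smallest unadjusted p among those with the same sign in 4 pairs and a mean of at least 1 CPM, 10 shares between 5 and 95% with the same sign in 4 pairs, and up to 4 genes per list. The members and lists were chosen with earlier results of these data known.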

Additional observations from a re-analysis of the deposited data

Results flagged for a closer look

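In groups of 4, 16 of 180 tested values had 1 library far from the other 3 by Dixon's criterion at 95%, where chance alone gives about 1 in 20. WT replicate 1 stood apart 6 times. It held 20.16 M estimated counts, where the other WT libraries held 32.53 to 34.78 M, and 1.331% mitochondrial counts. It had 0.5702% of its counts in processed pseudogenes, Chd1-201 at 48.55 CPM, Chd1-203 at 1.929 CPM and Aqr-207 at 36.15% of its gene.

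Other WT libraries that stood apart were replicate 4 for A2m-201 (54.54 CPM) and for the share of Rprd2-201 (52.62%), and replicate 2 for the share of Mast2-202 (6.793%). Among the KO libraries replicate 2 stood apart for the shares of Hus1-203 (2.38%) and Ccdc163-202 (5.68%) and, as the lowest, for the summed level of the Wnt list (1883 CPM) and of the G2/M list (3327 CPM). Replicate 3 was the highest for Mfn1-201 (93.97 CPM). Replicate 1 was the lowest for the share of Zmynd8-221 (13.65%) and for the summed level of the G1/S list (7733 CPM).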

How the results depend on the processing

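No gene, transcript or share picked by the naming rule reversed its sign under any alternative run. These were chosen for the same sign in 4 of 4 pairs, so leaving out libraries could hardly reverse them. Chd1, near 0, did change sign (log2 0.01, and -0.02 without the replicate 1 pair). Some medians of lists did too: G1/S ran from -0.09 to 0.11, G2/M from -0.18 to 0.08 and pericyte, meninges and fibroblast markers from -0.59 to 0.15. The number of genes passed was 0 in the paired edgeR model and 9 with DESeq2, 1 with length-scaled TPM counts, 1 with log2(TPM + 0.1), 27 with no filter on low counts, and 1 (Abca1) with the mean of the 3 knockout groups, an alternative chosen after the data were seen. Leaving out libraries gave 0 to 15, with 3 (Adamts1, Bcar3 and Wnt7a) without WT replicate 1 and 15 (0.0867%) without WT replicate 4. Without the replicate 1 pair it was 0, and 32 with only the 6 DMSO libraries of replicates 2 to 4. With only the 8 DMSO libraries it was 0. The number of transcripts passed was 144 with DESeq2 and 0 to 1 when libraries were left out (1 without WT replicate 3).

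The number of shares passed was 41 in the paired model, 0 on arcsine shares, 3 with only the 8 DMSO libraries, 2 for shares of at least 5%, 78 with no filter, 67 with the mean of the 3 knockout groups and 27 to 75 when libraries were left out (27 without KO replicate 1, 75 without WT replicate 1). The number of genes passed by shares was 17, and 7 with limma, 4 with the 8 DMSO libraries, 2 for shares of at least 5%, 44 with no filter, 30 with the mean of the 3 knockout groups and 14 to 40 when libraries were left out (14 without the replicate 1 pair, 40 without WT replicate 3).

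The fits without the replicate block, that is without pairing, passed 0 genes (508 at an unadjusted p under 0.05), 0 transcripts, 96 shares and 35 genes by shares, so the block changed the number of shares and no call of a gene or transcript. Without both the block and the replicate 1 pair 0 genes, 0 transcripts and 69 shares passed.

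Named shares were the least stable values: of 189 comparisons of a share with an alternative, 57 lost the threshold and 14 gained it. Named genes kept their side in 423 of 440 and named transcripts in 320 of 336, the rest passing the threshold. Medians of lists moved by more than the spread between pairs in 9 of 637. Depth limits what can be seen in WT replicate 1, and the cause of its distance was not tested.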
